A study of Mus musculus with 8 samples.

Results

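The 7 genes described here encode the MHC class II antigen-presentation machinery as read in Paneth cells (PCs): H2-Aa, H2-Ab1 and H2-Eb1, which encode chains of the class II molecules, H2-DMa and H2-DMb1, which encode the peptide exchange factor DM, Cd74, which encodes the invariant chain, and Ciita, which encodes the class II transactivator. They were chosen by symbol, whatever their values, and are 7 of the 55414 gene IDs in the count table. The cells were FACS-sorted PCs from the small intestine of C57BL/6J mice with no further allele, and bulk mRNA was sequenced with a stranded library kit. In the control group 4 mice drank Milli-Q water, and in the other group 4 mice drank water supplemented with 25 mM ZnSO4, both for 7 days. Each library came from 1 mouse, kept under specific pathogen free conditions. The ages of the mice were not used here.

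MHC class II molecules are pairs of an α and a β chain that show peptides from endosomes to CD4+ T cells. The invariant chain guides the new pair to the endosome and fills its groove, cathepsins trim it, and DM exchanges the last fragment for a peptide. CIITA does not bind DNA itself but joins the RFX, CREB and NF-Y proteins on the shared promoter module of these genes, and interferon-gamma is the classical inducer of Ciita. Dendritic cells, macrophages and B cells make class II constantly, while epithelial cells of the intestine make it at variable levels. C57BL/6 mice carry a promoter deletion in H2-Ea, so that they make I-A (H2-Aa with H2-Ab1) but no I-E pair, although H2-Eb1 is transcribed.

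Library totals ran from 20760764 to 24117111 counts, and CPM values (read counts relative to the library total, scaled by TMM factors of 0.764 to 1.23 that even out libraries of different composition) are used throughout. A count of 0 was taken as up to 3 counts, which allows 0.114 to 0.188 CPM, and such limits and the Poisson intervals below cover counting error only. The PC label held against its markers, since 9 of 9 listed PC genes were detected and their summed level ran from 364238 to 714087 CPM on water and from 345985 to 708676 CPM on zinc. The metallothionein gene Mt2, a direct target of zinc, ran from 2.15 to 7.32 CPM on water and from 205 to 455 CPM on zinc, so every library stood on the side of its label. Zinc was compared with water by the edgeR quasi-likelihood F test over 11988 genes, with Benjamini-Hochberg adjustment and a threshold of 0.05.

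All 7 class II genes were detected in all 8 libraries and all passed the low-count filter. Their mean levels were lower with zinc, with log2 fold changes (zinc against water) from -1.50 for H2-Aa to -1.04 for H2-DMb1, but the 4 zinc mice differed widely among themselves and 0 of the 7 passed the threshold. Zinc replicates 1 and 2 were the lowest 2 of the 8 libraries for each of the 7 genes, while zinc replicate 3, replicate 4 or both lay within the range of the water libraries for 5 of them, all but H2-DMa and Ciita. The background share of genes called lower with zinc was 0.0584% (7 of 11988), that of genes with zinc replicates 1 and 2 as the lowest 2 libraries was 2.91%, and the 7 genes are not independent cases. An unadjusted p below 0.05 was reached by 3 of the 7, against 558 of 11988 genes in all. The median log2 fold change was -1.26 over the 7 genes and 0.01 over all tested genes. In bulk RNA of sorted cells, fewer cells that make class II and less class II RNA per cell cannot be told apart.

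**Figure D1:**
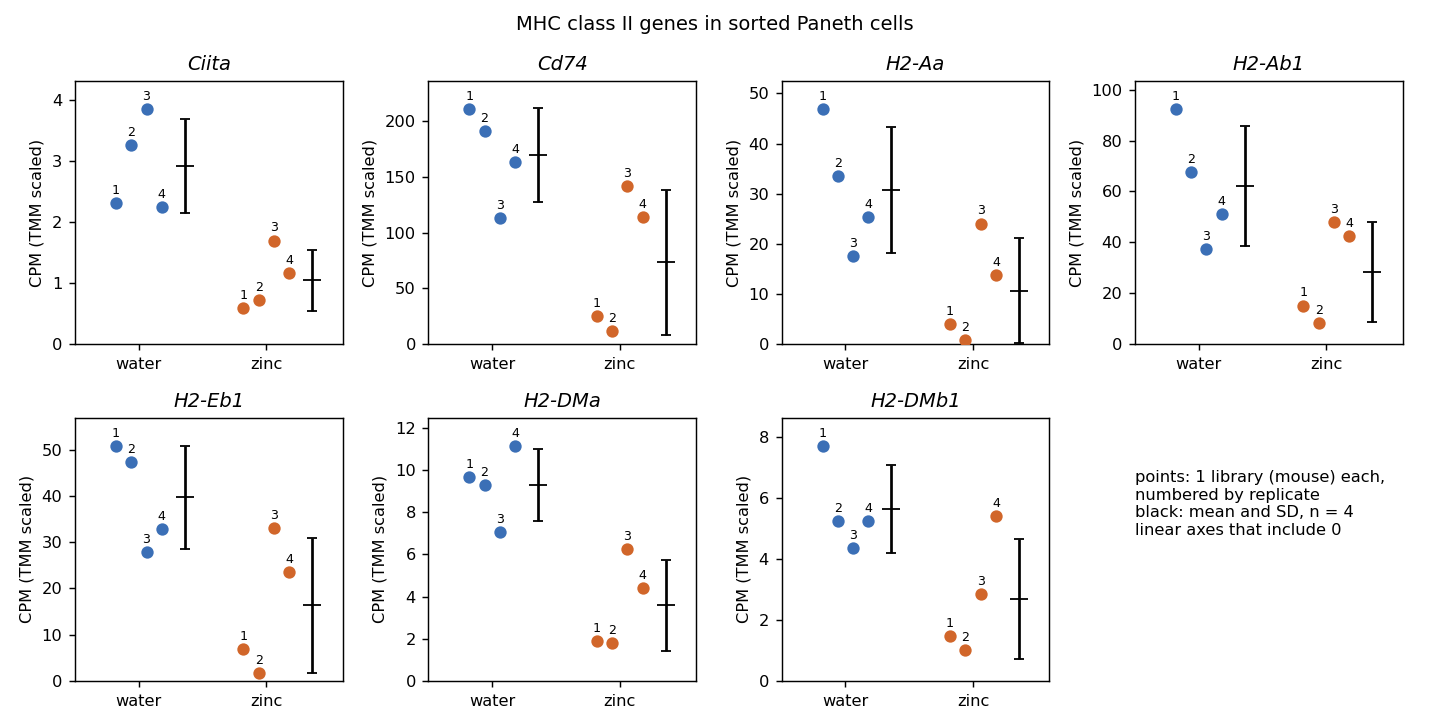
CPM (TMM scaled, linear axes) of each class II gene in the 4 water (blue) and 4 zinc (orange) libraries, 1 point per mouse and numbered by replicate, with the mean and SD (n = 4) in black. Zinc replicates 1 and 2 are the lowest points in every panel, and the groups are apart only for Ciita and H2-DMa.

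The molecule itself was read by H2-Aa, H2-Ab1 and H2-Eb1, which lie next to each other on chromosome 17. H2-Aa (ENSMUSG00000036594, GRCm39 chr17:34493404-34506798, minus strand, 6 merged exons), the α chain of I-A, stood at 46.8, 33.6, 17.6 and 25.3 CPM in water replicates 1 to 4 and at 3.98, 0.869, 24.1 and 13.7 CPM in zinc replicates 1 to 4. Zinc replicate 3 thus lay among the water libraries and zinc replicate 4 just under them, whereas zinc replicates 1 and 2 were far below. The level in zinc replicate 2 rested on 18 counts (exact Poisson 95% interval 10.7 to 28.4). It averaged 30.8 ± 12.5 CPM in the water mice against 10.7 ± 10.5 CPM in the zinc mice (± SD, n = 4 mice each). The log2 fold change of -1.50 had an SE of 0.87 and did not pass the threshold (edgeR adjusted p = 0.998).

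H2-Ab1 (ENSMUSG00000073421, chr17:34476663-34488393, plus strand, 6 merged exons), the β chain of I-A, stood at 92.3, 67.8, 37.4 and 51.0 CPM on water and at 15.2, 8.26, 48.1 and 42.4 CPM on zinc. Zinc replicates 3 and 4 were both above water replicate 3, so the groups overlapped. The change in log2 was -1.11 (SE 0.62, edgeR adjusted p = 0.998). H2-Eb1 (ENSMUSG00000060586, chr17:34504236-34535648, plus strand, 9 merged exons), the β chain of I-E, stood at 50.8, 47.3, 27.8 and 32.9 CPM on water and at 7.01, 1.74, 33.1 and 23.5 CPM on zinc. Zinc replicate 3 was above 2 of the 4 water libraries. On the log2 scale zinc against water gave -1.26 (SE 0.80, edgeR adjusted p = 0.998).

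Cd74 (ENSMUSG00000024610, chr18:60936899-60945731, plus strand, 9 merged exons) had the highest level of the 7 genes in every library, in CPM and per length of its exons. It stood at 211, 191, 113 and 163 CPM in water replicates 1 to 4 and at 25.3, 11.6, 142 and 114 CPM in zinc replicates 1 to 4. The lowest water library and zinc replicate 4 were nearly level, and counting error was small even in zinc replicate 2, with 240 counts (exact Poisson 95% interval 211 to 272). The average was 170 ± 42.4 CPM in the water mice against 73.4 ± 64.7 CPM in the zinc mice (± SD, n = 4 mice each). This gave a log2 fold change of -1.20 with an SE of 0.80, which did not pass the threshold (edgeR adjusted p = 0.998).

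Ciita (ENSMUSG00000022504, GRCm39 chr16:10297923-10347694, plus strand, 24 merged exons) was the least abundant, at 2.31, 3.27, 3.85 and 2.25 CPM on water and at 0.594, 0.724, 1.70 and 1.16 CPM on zinc. All 4 zinc libraries lay below all 4 water libraries, although the lowest value, in zinc replicate 1, rested on 10 counts (exact Poisson 95% interval 4.80 to 18.4). The water mice averaged 2.92 ± 0.773 CPM and the zinc mice 1.05 ± 0.499 CPM (± SD, n = 4 mice each). Its log2 fold change of -1.46 (SE 0.37) had the smallest p-value of the class II genes but did not pass the threshold (edgeR adjusted p = 0.402). DESeq2 put Ciita past the threshold (adjusted p = 0.0447), as did edgeR without a low-count filter (adjusted p = 0.0385), and over all alternatives its adjusted p ran from 0.0385 to 0.999.

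The DM genes stood between the chains and Ciita. H2-DMa (ENSMUSG00000037649, chr17:34338515-34358958, plus strand, 4 merged exons), the α chain of DM, stood at 9.69, 9.28, 7.06 and 11.2 CPM on water and at 1.90, 1.79, 6.24 and 4.42 CPM on zinc. These groups did not overlap either. The water mice averaged 9.30 ± 1.69 CPM and the zinc mice 3.59 ± 2.15 CPM (± SD, n = 4 mice each). The log2 fold change of -1.35 (SE 0.35) did not pass the threshold (edgeR adjusted p = 0.513). With DESeq2 its adjusted p was 0.0163, and in edgeR it was 4.1e-06 without a low-count filter and 0.0432 without zinc replicate 3. The largest adjusted p over the alternatives was 0.999.

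H2-DMb1 (ENSMUSG00000079547, chr17:34372046-34379204, plus strand, 7 merged exons), the β chain of DM, stood at 7.69, 5.24, 4.36 and 5.23 CPM on water and at 1.48, 1.01, 2.84 and 5.39 CPM on zinc. Zinc replicate 4 was above 3 of the 4 water libraries, and the other 3 zinc libraries were below all of them. The log2 difference was -1.04 (SE 0.42, edgeR adjusted p = 0.998), and without a low-count filter its adjusted p was 0.0402, the smallest of a range that reached 0.999. Groups without overlap, lower with zinc, were seen in 2 of the 7 class II genes (Ciita and H2-DMa) and in 1.59% of all tested genes. With library totals as the only scaling H2-DMa was still without overlap, but Ciita was not, since water replicate 1 (1.77 CPM) then lay level with zinc replicate 3 (1.78 CPM).

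The count of class II genes past the threshold moved with the setting. DESeq2 called 2 lower (Ciita and H2-DMa), where it called 0.217% of all genes lower. edgeR without a low-count filter called 3 lower, where it called 0.264% of 20836 genes lower, and without zinc replicate 3 it called 1 lower, H2-DMa, where it called 0.0575% of 12180 genes. None of these settings called a class II gene higher.

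**Figure D2:**
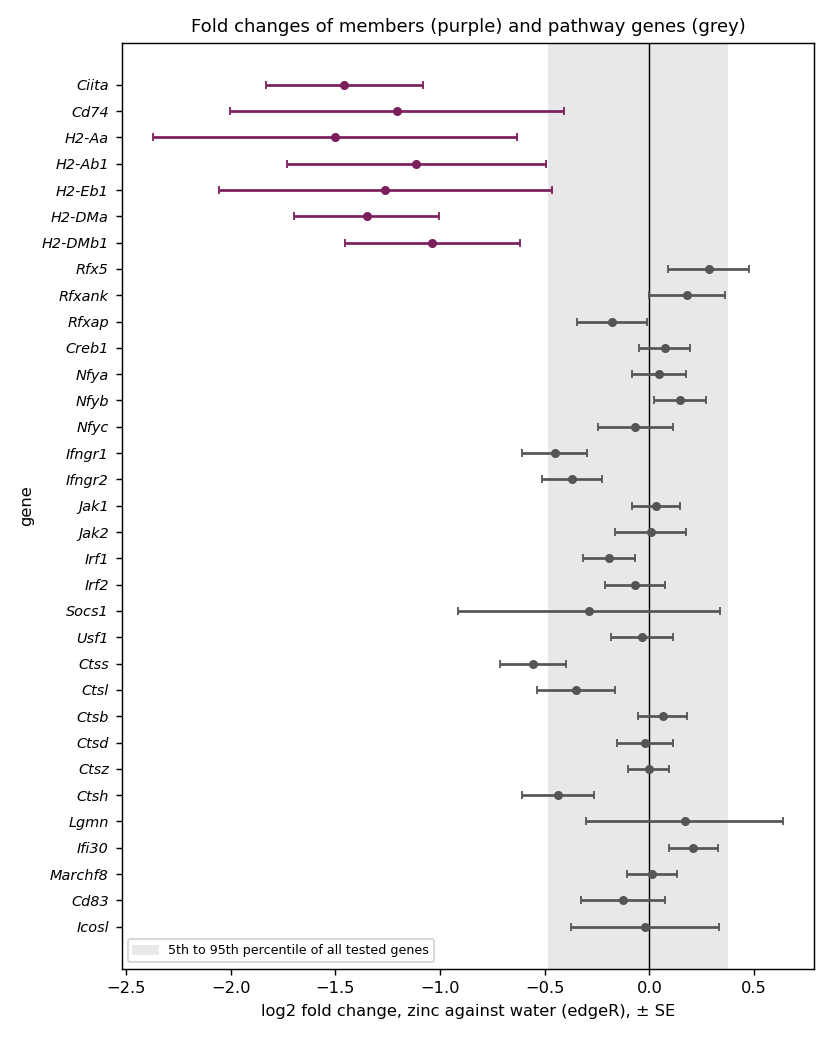
Log2 fold change of zinc against water (edgeR, bars ± SE) of the 7 class II genes (purple) and of tested pathway genes (grey), with the 5th to 95th percentile of all tested genes shaded (-0.48 to 0.37). The class II genes lie from -1.50 to -1.04 with wide bars for Cd74, H2-Aa and H2-Eb1, while Ctss is the only pathway gene outside the shading.

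Among the 4 zinc mice the class II genes with a mean of at least 5 CPM ranked among the most variable genes above that level. The highest zinc library held 27.7 times the CPM of the lowest for H2-Aa, 19.1 times for H2-Eb1 and 12.3 times for Cd74. For H2-Ab1 the ratio was 5.82, for H2-DMb1 5.32, for H2-DMa 3.49 and for Ciita 2.86. Over the 8665 tested genes with a mean of at least 5 CPM (5 of them class II) the median ratio among zinc libraries was 1.31. Only 0.0231% of them (2 genes, H2-Aa included) had a ratio as large as that of H2-Aa, and 0.104% as large as that of Cd74. The share was 1.22% for Ciita. Ciita and H2-DMb1 had means of 1.98 and 4.16 CPM, below this cut, so counting error weighs more in their ratios than in the background. Among the 4 water mice the ratios were lower, from 1.58 for H2-DMa to 2.67 for H2-Aa, against a median of 1.39. The summed CPM of the 7 genes was 420, 358, 211 and 291 across the water replicates and 55.5, 26.0, 258 and 205 in zinc replicates 1 to 4. Zinc replicate 3 was above water replicate 3 by this sum.

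**Figure D3:**
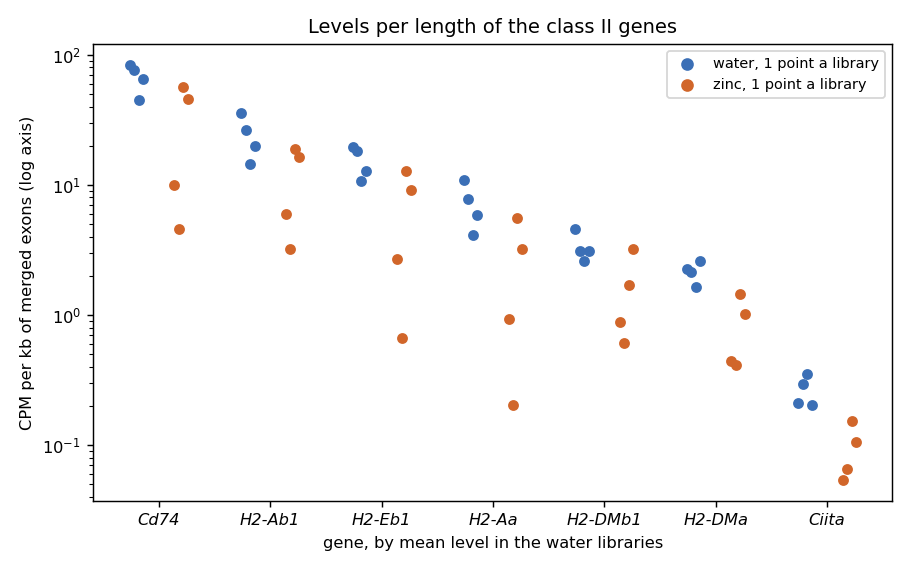
Level of each class II gene per kb of merged exons (CPM per kb, log axis), 1 point per library, with the genes in the order of their mean in the water libraries. Cd74 is at the top (67.4 CPM per kb) and Ciita at the bottom (0.265 CPM per kb), and the zinc libraries spread widest for H2-Aa.

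To compare genes with each other, CPM were divided by the length of the merged exons. In the water libraries the level was 67.4 ± 16.9 CPM per kb for Cd74, 24.2 ± 9.22 for H2-Ab1, 15.3 ± 4.28 for H2-Eb1 and 7.18 ± 2.92 for H2-Aa (SD, n = 4). The DM genes followed at 3.35 ± 0.854 CPM per kb for H2-DMb1 and 2.15 ± 0.390 for H2-DMa, and Ciita was last at 0.265 ± 0.0700 (SD, n = 4). Between mice, the ranges of the water libraries overlapped for H2-Ab1 and H2-Eb1, for H2-Eb1 and H2-Aa, and for H2-Aa and H2-DMb1, and not for the other neighbours. Within each library the genes stood in this order in all 4 water mice. Among the zinc mice H2-Aa was below H2-DMb1 in replicates 2 and 4, and in replicate 2 it was also below H2-DMa (0.202 against 0.412 CPM per kb). With the longest transcript as the length, H2-DMa and H2-DMb1 changed places (4.48 and 4.01 CPM per kb), the water ranges of Cd74 and H2-Ab1 overlapped, and those of H2-Eb1 and H2-Aa did not.

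The genes did not stand in fixed proportion to each other across mice, as ratios of CPM within a library show (ratios of 1 pair can be followed across libraries, since the lengths cancel). H2-Ab1 was 43.8, 35.4, 33.0 and 31.2% of the CPM of Cd74 across the water replicates, and 60.1, 71.2, 33.8 and 37.1% in zinc replicates 1 to 4. In zinc replicates 1 and 2, where Cd74 was lowest, H2-Ab1 thus made up a larger share of Cd74 than in the other 6 libraries. H2-DMa was 4.60 to 6.83% of Cd74 on water and reached 15.4% in zinc replicate 2. H2-Aa went the other way and was 15.5 to 22.2% of Cd74 on water but 7.50% in zinc replicate 2.

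Across the 8 libraries all 21 pairs of class II genes went together in log2 CPM, with Pearson r from 0.76 to 0.996. These correlations are a description, since the 8 points fall apart into zinc replicates 1 and 2 and the rest and share depth and scaling. Without those 2 libraries (n = 6) the 3 chain genes and Cd74 still went together, with r of 0.93 to 0.98. Ciita then went least with the others, with r from 0.09 with H2-DMb1 to 0.61 with H2-DMa. Water replicate 3 shows this plainly, with the highest Ciita level of all libraries and the lowest Cd74 level of the water libraries.

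The genomic context bears on how these counts can be read. All but Cd74 and Ciita lie in the MHC on chromosome 17. Of the 75-base words of the annotated transcripts, 100% of those of H2-Aa, H2-Ab1, H2-Eb1, H2-DMa and Ciita, 99.6% of those of Cd74 and 84.2% of those of H2-DMb1 occurred in no other gene on the same strand. The shared words of H2-DMb1 are those of its near copy H2-DMb2, which had 0 counts in all 8 libraries, and how reads shared by both were counted is not given. On the opposite strand H2-DMa overlaps Brd2, Ciita overlaps Dexi, H2-Aa and H2-Eb1 overlap each other, H2-DMb1 overlaps Gm64535 and H2-Eb1 also overlaps Gm20513, and the counting is not stated to use strand, so reads of such partners could not be told apart. Brd2 (log2 fold change -0.21, SE 0.16, edgeR adjusted p = 0.998) and Dexi (-0.04, SE 0.16, adjusted p = 0.998) did not pass the threshold.

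The promoters of class II genes are known for a module of boxes, of which the X2 motif (TGATG or TGACG here) and the Y box (ATTGG) are the parts on which the CREB and NF-Y proteins sit. They are printed here because the levels of the 7 genes went together. The window searched was 250 bases before to 50 bases after the gene's start, taken from RefSeq for GRCm38.p6, with both strands searched for each box alone and the gene's strand for the pair with 8 to 30 bases between. H2-Aa, H2-Eb1 and H2-DMb1 held the pair, shown 5′ to 3′ on the gene's strand with the X2 motif and the Y box in capitals.
H2-Aa: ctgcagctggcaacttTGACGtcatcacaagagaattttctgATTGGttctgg
H2-Eb1: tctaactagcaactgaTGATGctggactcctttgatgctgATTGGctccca
H2-DMb1: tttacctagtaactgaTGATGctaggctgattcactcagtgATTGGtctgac
These stretches lie at GRCm38.p6 chr17:34287861-34287913 (minus strand), chr17:34305768-34305818 (plus strand) and chr17:34153089-34153140 (plus strand). The X2 motif began 74, 83 and 86 bases before the start of H2-Aa, H2-Eb1 and H2-DMb1, and 21, 19 and 20 bases lay between the boxes.

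The pair in this order was found in 1.01% of 32851 windows of the same length, while ATTGG alone was found in 37.4% and the X2 motif alone in 53.1%. Neither of the 2 windows of H2-DMa held the pair, which says only that these letters are not in these windows. H2-Ab1 and Ciita were not matched in the table, and the window of Cd74 was not searched. The windows of H2-DMb2, H2-Ob and H2-Eb2 held the pair too, and these 3 genes had at most 2 counts in any library. The window of H2-Oa, which had 0 counts, did not hold the pair.

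The partner genes of the same locus were nearly silent. H2-DMb2, H2-Oa and H2-Ob, of which H2-Oa and H2-Ob encode the DM inhibitor DO, had 0 counts in all 8 libraries. H2-Ea had 3 counts in zinc replicate 4 and 0 elsewhere, and H2-Eb2 had 2 counts in water replicate 2 and 0 elsewhere. H2-Ea-ps was not matched to a gene ID of the table.

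Of 37 listed genes around class II that have a gene ID, 27 passed the low-count filter. In edgeR and in every alternative 0 of them were called in either direction, and 4 had an unadjusted p below 0.05, all lower with zinc. The median log2 fold change of the 27 was -0.02. Of the promoter complex (Rfx5, Rfxank, Rfxap, Creb1, Nfya, Nfyb and Nfyc) 7 of 7 were tested, 2 with a log2 fold change below and 5 above 0, from -0.18 for Rfxap to 0.28 for Rfx5. These are the proteins on which CIITA assembles, and the SE of their log2 fold changes was at most 0.19.

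Of 9 tested genes of the interferon-gamma pathway, 0 passed the threshold, 7 had a log2 fold change below and 2 above 0. Ifngr1 and Ifngr2, the receptor chains, had log2 differences between zinc and water of -0.45 (SE 0.16, edgeR adjusted p = 0.881) and -0.37 (SE 0.14, edgeR adjusted p = 0.998). Zinc replicates 1 and 2 held 28.3 and 32.0 CPM of Ifngr1, and replicates 3 and 4 held 28.0 and 24.4 CPM. Irf1, a transcription factor induced by interferon, stood at 35.0, 31.9, 38.3 and 37.0 CPM on water and at 29.0, 26.2, 32.2 and 37.0 CPM on zinc. It followed the class II genes in having its lowest levels in zinc replicates 1 and 2 (log2 fold change -0.19, SE 0.12, edgeR adjusted p = 0.998), with r = 0.80 over the 8 libraries and -0.26 without these 2 (n = 6). The part of this pathway in the class II levels was not tested.

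Of 8 tested genes of endolysosomal processing, 0 passed the threshold, with 5 below and 3 above 0. Ctss, the protease that makes the last cuts in the invariant chain, stood at 10.2, 11.8, 11.3 and 12.7 CPM on water and at 6.41, 8.30, 8.22 and 8.30 CPM on zinc. All zinc libraries were below all water libraries, and zinc replicates 2, 3 and 4 were level with each other. The log2 difference was -0.56 (SE 0.16, edgeR adjusted p = 0.523). Ctsh had -0.44 (SE 0.17, edgeR adjusted p = 0.998), and Ifi30, the thiol reductase of the endosome, had 0.21 (SE 0.12, adjusted p = 0.998). Marchf8 and Cd83, which act on the surface turnover of class II, had log2 fold changes of 0.01 and -0.12. Marchf1 had 0 counts in all 8 libraries, as did the costimulator Cd86, while Cd80 and Cd40 had at most 7 and 2 counts in any library and Icosl was tested (log2 fold change -0.02, SE 0.35, edgeR adjusted p = 0.998). Cd274, which encodes the inhibitory ligand PD-L1 and did not pass the low-count filter, had 0, 8, 9 and 5 counts on water and 8, 12, 14 and 34 counts on zinc. In CPM all its zinc libraries (0.475 to 1.32) were above all its water libraries (0 to 0.381), but this separation rested on the TMM factors. In raw counts the groups overlapped, with 8 in zinc replicate 1 (factor 0.775) and 9 in water replicate 3 (factor 1.07). The difference was not tested.

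**Figure D4:**
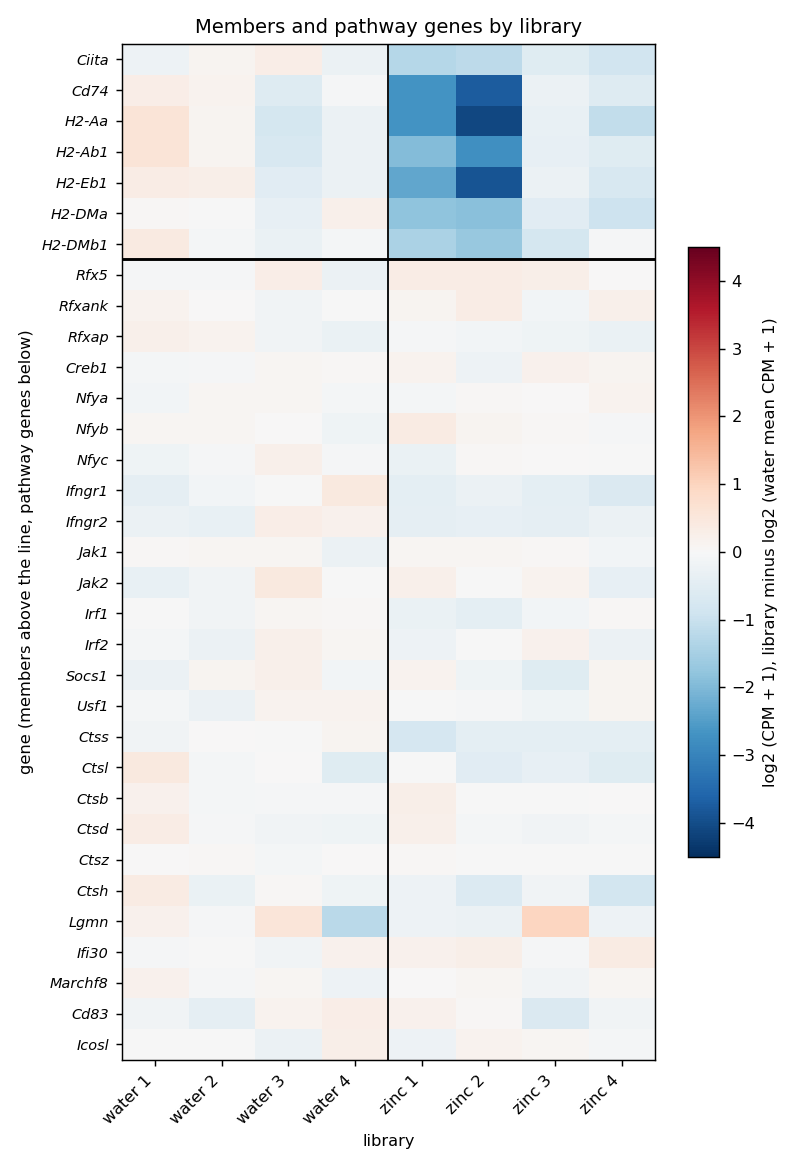
Log2 (CPM + 1) of each library minus log2 (mean water CPM + 1) for the 7 class II genes (above the line) and for tested pathway genes. The class II genes are darkest in zinc replicates 1 and 2, where the pathway genes show no such block.

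Professional antigen-presenting cells carry far more class II than epithelium, so their markers were read beside these genes. Of 20 dendritic cell and macrophage markers 7 had 0 counts in all 8 libraries, among them Itgax (CD11c), Fcer1g, Tyrobp and Flt3. The complement gene C1qa of macrophages had 42, 23, 13 and 0 counts on water and 3, 0, 0 and 0 counts on zinc, and thus was higher in 3 water libraries than in any zinc library, with water replicate 1 highest. Other macrophage markers did not share this pattern. C1qb, C1qc and Csf1r had at most 1 count in any library. Cd68 had 2, 5, 1 and 2 counts on water and 0, 4, 9 and 18 on zinc. Cx3cr1 had 0 counts on water and 2, 0, 1 and 6 on zinc. Adgre1 had 12 counts in water replicate 1 and 0 elsewhere. Lyz2 is a near copy of the PC gene Lyz1, and the other 19 markers summed to 3.94, 2.15, 1.23 and 2.44 CPM in water replicates 1 to 4 and to 0.713, 1.35, 1.34 and 1.59 CPM in zinc replicates 1 to 4. This sum was highest in water replicate 1, where H2-Aa and Cd74 were also highest in CPM, and lowest in zinc replicate 1. It was no lower in zinc replicate 2, where H2-Aa was lowest, than in zinc replicate 3. C1qa alone made up 2.63 CPM of the sum in water replicate 1, which had the lowest TMM factor (0.764). With library totals as the only scaling Cd74 was not highest there, at 161, 195, 120 and 198 CPM in water replicates 1 to 4. The part of these cells in the class II levels was not tested. The pan-leukocyte gene Ptprc had at most 32 counts, in water replicate 4, and 0 in zinc replicates 1, 2 and 4.

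B cell and plasma cell markers summed to 0.115 to 0.558 CPM on water and 0.338 to 0.931 CPM on zinc, with 5 of 11 at 0 throughout. T cell and intraepithelial lymphocyte markers summed to 0 to 0.420 CPM on water and 0.531 to 1.24 CPM on zinc, with 8 of 10 at 0, Cd3e among them. Apart from 3 Gzma counts in zinc replicate 3, this sum was Lck alone. Lck had 0, 6, 8 and 11 counts on water and 15, 11, 11 and 32 counts on zinc. Stroma and endothelium markers summed to at most 1.31 CPM, with 4 of 7 at 0. None of these 3 sums was lowest in both zinc replicates 1 and 2.

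Other epithelial lineages were present at higher levels. Enterocyte markers summed to 234 to 255 CPM on water and 236 to 317 CPM on zinc, goblet cell markers to 3670 to 5158 CPM and 4267 to 7503 CPM, and tuft and enteroendocrine markers to 16.1 to 152 CPM and 24.5 to 112 CPM. Crypt stem cell markers, mostly Olfm4, summed to 4566, 5218, 5178 and 5947 CPM in water replicates 1 to 4 and to 4668, 4019, 3654 and 3230 CPM in zinc replicates 1 to 4. In zinc replicates 1 to 4 Olfm4 alone stood at 4150, 3490, 3177 and 2799 CPM. In CPM Smoc2 and Rgmb were also higher in zinc replicates 1 and 2, where class II was lower, than in 3 and 4. Lgr5 (63.0, 91.7, 73.2 and 74.2 CPM) and Axin2 (52.0, 75.7, 60.5 and 59.7 CPM) were instead lowest in zinc replicate 1 among the zinc libraries. Ascl2 (21.6, 20.8, 21.8 and 15.9 CPM) did not follow Olfm4 either. The higher CPM of Olfm4, Smoc2 and Rgmb in zinc replicates 1 and 2 rested on the TMM factors, which rose from 0.775 in replicate 1 to 1.23 in replicate 4. Raw counts in zinc replicates 1 to 4 were 69891, 72278, 80422 and 72157 for Olfm4 and 3709, 3597, 4272 and 4078 for Smoc2. For Rgmb they were 2707, 3470, 3848 and 3178. By these counts none of these genes was higher in both replicates 1 and 2 than in 3 and 4. The part of these lineages in the class II levels was not tested either.

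**Figure D5:**
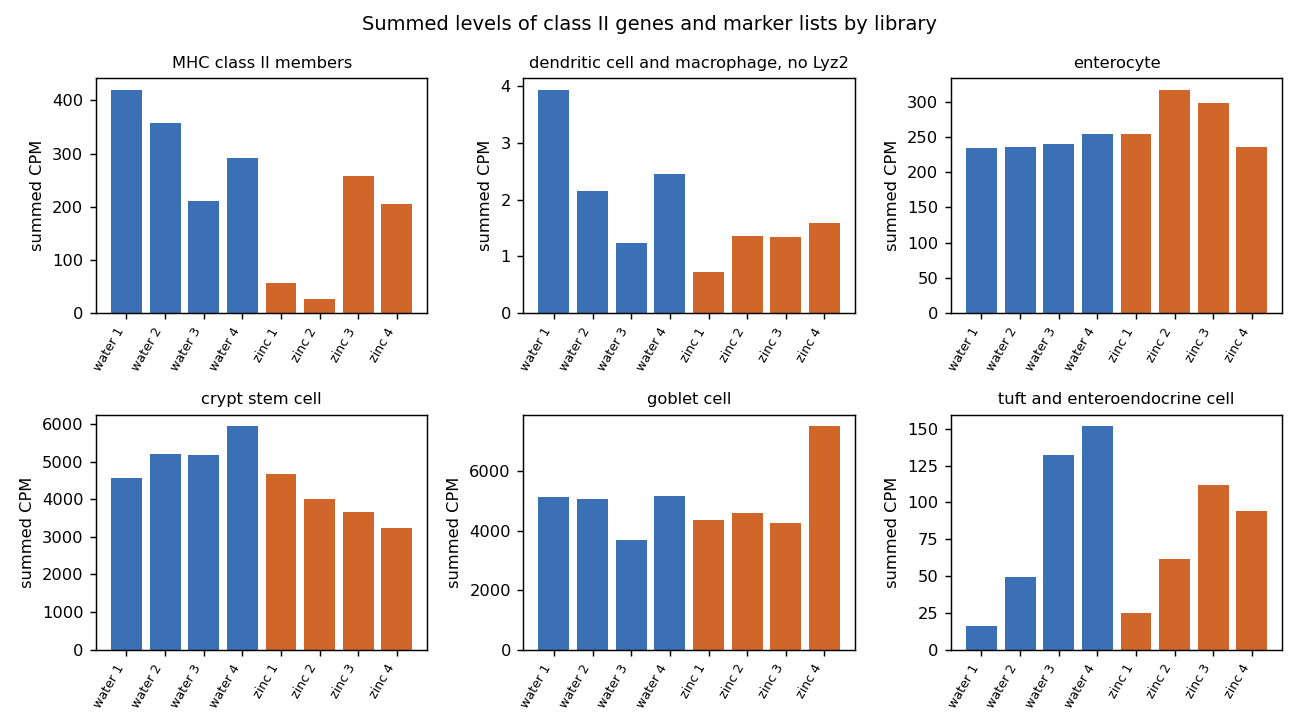
Summed CPM (TMM scaled, bars from 0) of the 7 class II genes and of 5 marker lists in each of the 8 libraries, blue for water and orange for zinc. The class II sum is lowest in zinc replicates 1 and 2 (55.5 and 26.0 CPM), a pattern none of the 5 marker lists shows.

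The metallothionein levels of the zinc mice were set beside their class II sums of 55.5, 26.0, 258 and 205 CPM. Mt2 stood at 232, 455, 205 and 240 CPM in zinc replicates 1 to 4, and Mt1 at 223, 425, 189 and 219 CPM. In CPM zinc replicate 2, with the least class II, had the most of both, and zinc replicate 3, with the most class II, had the least of both. The CPM order of Mt1 was the reverse of that of the class II sum. That of Mt2 differed from it only in replicates 1 and 4, which were nearly level in CPM of both metallothioneins. These orders rested on the TMM factors (0.775, 0.998, 1.05 and 1.23 in zinc replicates 1 to 4). In raw counts Mt1 was at 3755, 8807, 4781 and 5635 and Mt2 at 3906, 9431, 5191 and 6183. By these counts zinc replicate 2 still had the most of both, but zinc replicate 1, with little class II, had the fewest of both. The part of the zinc signal in the class II levels was not tested.

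The genes most like the class II genes were ranked by Pearson r over the 8 libraries with the mean of the 7 standardised profiles, among 8660 other tested genes with a mean of at least 5 CPM. The first 10 were Psmb8 and Rlf (r = 0.95 each), Nme7 and Tapbp (0.92 each), Utp3 (0.91), Mrpl49, Id1 and Hus1 (0.90 each), and 2310011J03Rik and Ptpn12 (0.89 each). All had their lowest 2 levels in zinc replicates 1 and 2. The ranking itself favours this, since the mean profile was -1.17 and -1.77 there and above 0 elsewhere, so it is no separate result. Without those libraries (n = 6) r was 0.85 for Rlf, 0.73 for Tapbp and Ptpn12 and 0.72 for Psmb8, but -0.04 for Utp3 and 0.18 for 2310011J03Rik. None of the 10 passed the threshold.

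Of these, Psmb8 (chr17:34416690-34420428) encodes an immunoproteasome subunit and Tapbp (chr17:34134873-34148267) the class I loading factor tapasin, and both lie in the MHC. Psmb8 was at 20.8, 17.6, 14.0 and 20.2 CPM on water and at 9.92, 8.59, 17.7 and 14.1 CPM on zinc. Zinc replicates 1 and 2 were apart from the rest, as the ranking favours (log2 fold change -0.52, SE 0.21, edgeR adjusted p = 0.998). Tapbp stood at 62.5, 55.8, 56.9 and 62.1 CPM on water and at 42.3, 42.7, 49.5 and 53.0 CPM on zinc. All 4 zinc libraries were below the water libraries, with zinc replicates 1 and 2 lowest (log2 fold change -0.34, SE 0.11, edgeR adjusted p = 0.852). The spread was far smaller than in class II, with 1.25 times between the highest and the lowest zinc library for Tapbp and 2.05 for Psmb8.

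Class I genes were read for contrast, named after their values had been seen. H2-K1 stood at 355 ± 87.9 CPM on water and 352 ± 40.3 CPM on zinc, H2-D1 at 208 ± 34.2 and 187 ± 18.4 CPM, and B2m at 321 ± 74.8 and 272 ± 21.9 CPM (± SD, n = 4 mice each). Their log2 fold changes were -0.01, -0.15 and -0.24 (SE 0.15, 0.13 and 0.15, edgeR adjusted p = 0.998 for each). Among zinc libraries the highest held at most 1.30 times the lowest for these 3 genes, against 12.3 times for Cd74.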

How the data were processed

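The values are raw read counts, deposited by the authors as 1 table with a row for each Ensembl gene ID and a column for each of the 8 libraries. It held 0 columns of other samples. Per the labels, the build was mm39 and the tools were FastQC 0.12.0, STAR 2.7.0a and DESeq2, with no role stated. The counting program, its strand setting and the treatment of reads in several genes are not stated in what was used here. Symbols and coordinates came from GENCODE M39 (GRCm39), joined on the gene ID (54749 of 55414 IDs).

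Counts were filtered (filterByExpr, minimum count 10), scaled by TMM and tested with robust quasi-likelihood fits in edgeR 4.0.16 (R 4.3.3), with treatment only in the model, all 8 libraries and Benjamini-Hochberg adjustment over 11988 genes. SE was the size of the log2 fold change divided by the root of its F value. Profiles were log2 CPM with a prior count of 2, and Python 3.11.15 was used for promoters and figures. The procedure was tested on simulated counts. Within groups, libraries differed well beyond sampling noise (chi-square over degrees of freedom 31.2 to 131), and each counts as 1 mouse.

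The genes, lists and tests were chosen with earlier results of these data known. The naming rule took all 7 class II genes, Mt1 and Mt2, tested pathway genes, silent partners, defining markers and the 10 most alike genes. Brd2, Dexi, the costimulators other than Icosl, H2-K1, H2-D1, B2m and some single markers were named outside it. Alternatives were RLE factors, library totals, DESeq2 1.42.0, limma-voom with sample weights (limma 3.58.1), a low-count filter switched off or set to a mean of 50 counts, replicate number as a block, and each library left out in turn. Results for some listed genes are not reported here.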

Additional observations from a re-analysis of the deposited data

How the results depend on the processing

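The log2 fold change of each of the 7 class II genes was below 0 in every alternative run. The number past the threshold, 0 as reported, was 2 with DESeq2, 3 without a low-count filter and 1 without zinc replicate 3, and it ranged from 0 to 1 over the 8 fits that left out a library. The cause was not tested. It was 0 with RLE factors, library totals, voom, the replicate block and a mean count of at least 50, where Ciita was not among the genes tested. Pathway genes past the threshold were 0 in every alternative. Leaving out zinc replicate 2 brought Cd74 to -0.85, H2-Aa to -1.12, H2-Ab1 to -0.81, H2-Eb1 to -0.89, H2-DMa to -1.13 and H2-DMb1 to -0.77, leaving out zinc replicate 3 brought Cd74 to -1.75 and H2-Aa to -2.28, and leaving out zinc replicate 4 brought H2-DMb1 to -1.63. With voom and sample weights Cd74 was at -1.95, H2-Aa at -2.35 and H2-Eb1 at -2.06 (limma adjusted p = 0.725, 0.529 and 0.638). The adjusted p of Ciita ran from 0.0385 to 0.999 and that of H2-DMa from 4.1e-06 to 0.999. The deviations of same-numbered libraries correlated with r of 0.233, 5.5e-05, 0.127 and 0.263 for numbers 1 to 4. The requirement for pairing, r over 0.1 for every number, was met by all but number 2, and the labels name no shared batch, so the block was kept as an alternative. TMM factors were close within a number (0.764 and 0.775, 1.02 and 0.998, 1.07 and 1.05, 1.21 and 1.23), a hint at replicate sets that the labels do not settle. With the replicate block edgeR called 6 genes higher and 26 lower in all, against 3 and 7 without it, 0 of them class II genes, with a class II median of -1.51 and edgeR adjusted p of 0.117 for Ciita and 0.343 for H2-DMa. Depth limits Ciita most, with 10 counts in its lowest library.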
